A study of Mus musculus with 11 samples.

Results

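The mitochondrial respiratory chain was followed across kidneys of mice with a full set, a single copy or no copy of intact Cldn16. Its members were all array probes whose gene symbol belongs to the nuclear subunit families of complexes I to V (Ndufa, Ndufb, Ndufc, Ndufs and Ndufv, Sdha to Sdhd, Uqcr, Cox4 to Cox8 and Atp5, with the assembly factors those name stems also reach), and the mitochondrially encoded ND6. They were 92 of the 19057 genes named on the array, read by 143 of its 45281 probes. Detection at p below 0.05 on 3 or more arrays was required for a test, which left 124 probes for 85 of these genes, among 22856 tested probes in all. Total kidney RNA of 11 female mice was hybridised to Illumina bead arrays, 1 array per mouse, and no array pooled animals. The groups were 4 Cldn16 +/+ mice (WT), 3 Cldn16 +/- mice (Het) and 4 Cldn16 -/- mice (KO). All of them were 8 weeks old and had a mixed background from 129S7/SvEvBrd-Hprtb-m2 and C57BL/6N, and the labels give no other allele or agent. Killing fell on postnatal day 59 for 2 WT, 1 Het and 1 KO mouse and on day 58 for the other mice. The kidney poles had been removed.

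In the inner mitochondrial membrane, complex I takes electrons from NADH and complex II takes them from succinate, complex III passes them on to cytochrome c and complex IV hands them to oxygen. Complexes I, III and IV pump protons as they do so, and complex V, the ATP synthase, lets the protons return and makes ATP. Most subunits are encoded in the nucleus and a few of the core subunits in mitochondrial DNA. Kidney tubules, the proximal tubule and the thick ascending limb above all, depend on this chain to power ion transport. Claudin-16, the protein targeted in the KO mice, sits in tight junctions of the thick ascending limb, where magnesium and calcium pass between cells.

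The single Cldn16 probe read 9.61, 9.17, 9.68 and 9.59 in the WT mice, 9.28, 9.38 and 9.37 in the Het mice and 9.35, 8.59, 8.86 and 9.15 in the KO mice, as normalised log2 intensities. KO minus WT was -0.53 ± 0.16 (SE) and did not pass the test (limma adjusted p = 0.227), and the sources used here do not say where this probe lies relative to the targeted stretch. The library labelled KO 2 stood apart from the others, and where a member's printed difference moved by over 1.5 times without it, differences near 0 aside, the value without it is given too. Both slides held mice of every genotype, with WT 1, WT 2, Het 1, Het 2, KO 1 and KO 2 on slide 1 and the others on slide 2. All mice of day 59 were on slide 1, so slide and day cannot be told apart within WT. Fat markers differed between mice: of 9 brown fat and 10 adipocyte markers looked for, 7 and 8 were on the array, and Fabp4, Retn, Elovl3 and Zic1 were detected on 0 arrays. Markers of the distal convoluted tubule had 15 of 15 probes above WT in KO kidneys, of which 1 passed the test, and a summed intensity of 51918 to 62558 against 35348 to 44725 in WT, whereas those of the proximal tubule summed to 176220 to 198330 against 167360 to 178890. Markers of the thick ascending limb, which include Cldn16, had 14 of 22 probes lower in KO kidneys. They summed to 130740 to 160280 against 137400 to 148070 in WT. Collecting duct markers had 12 of 15 probes higher, with a median of 0.21. Their part in the results below was not tested. In whole kidneys, fewer cells of a type and less RNA per cell cannot be told apart. Where no separate cultures or litters are recorded, p-values measure the spread between these mice only.

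No respiratory chain probe passed the threshold (limma, adjusted p under 0.05 over all tested probes) in any of the 3 genotype comparisons. In KO against WT kidneys 0 of 124 member probes passed, where 9 of all 22856 probes did (0.0394%), and the lowest adjusted p of a member was 0.211. At an unadjusted p under 0.05 there were 16 member probes (12.9%), the same share as over all tested probes (12.9%). The direction was uneven: 15 of these lay lower in KO kidneys (12.1% of members against 6.17% of all probes) and 1, Uqcrc1, lay higher (0.806% against 6.72%). The median KO minus WT difference over the 124 probes was -0.12 on the log2 scale, with 87 probes below 0, and over all tested probes it was 0.0007. Groups that did not overlap were found for 10 member probes (8.06% against 7.13% of all probes), 8 of them lower in KO (6.45% against 3.45% of all probes) and 2 higher (1.61% against 3.68%).

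These counts leaned on KO 2. Without that mouse the median difference was -0.06, with 79 of 124 probes below 0, and unadjusted p-values under 0.05 were left for 7 lower members (5.65% against 4.03% of all probes) and 1 higher member (0.806% against 5.03%). Leaving out KO 1, KO 4 and Het 3 instead, the mice highest for Ucp1 and Adipoq, moved the counts the other way. KO 2 and KO 3 were then the remaining KO mice, so KO 2 weighed more in the KO mean. Relative to each probe's mean over all arrays, the members had medians of -0.27 on KO 2 and -0.01 on KO 3. In this setting the median difference was -0.16. At an unadjusted p under 0.05, 38 members were lower (30.6% against 6.58% of all probes) and 3 were higher (2.42% against 6.07%). The part of fat in these counts was not tested.

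**Figure D1:**
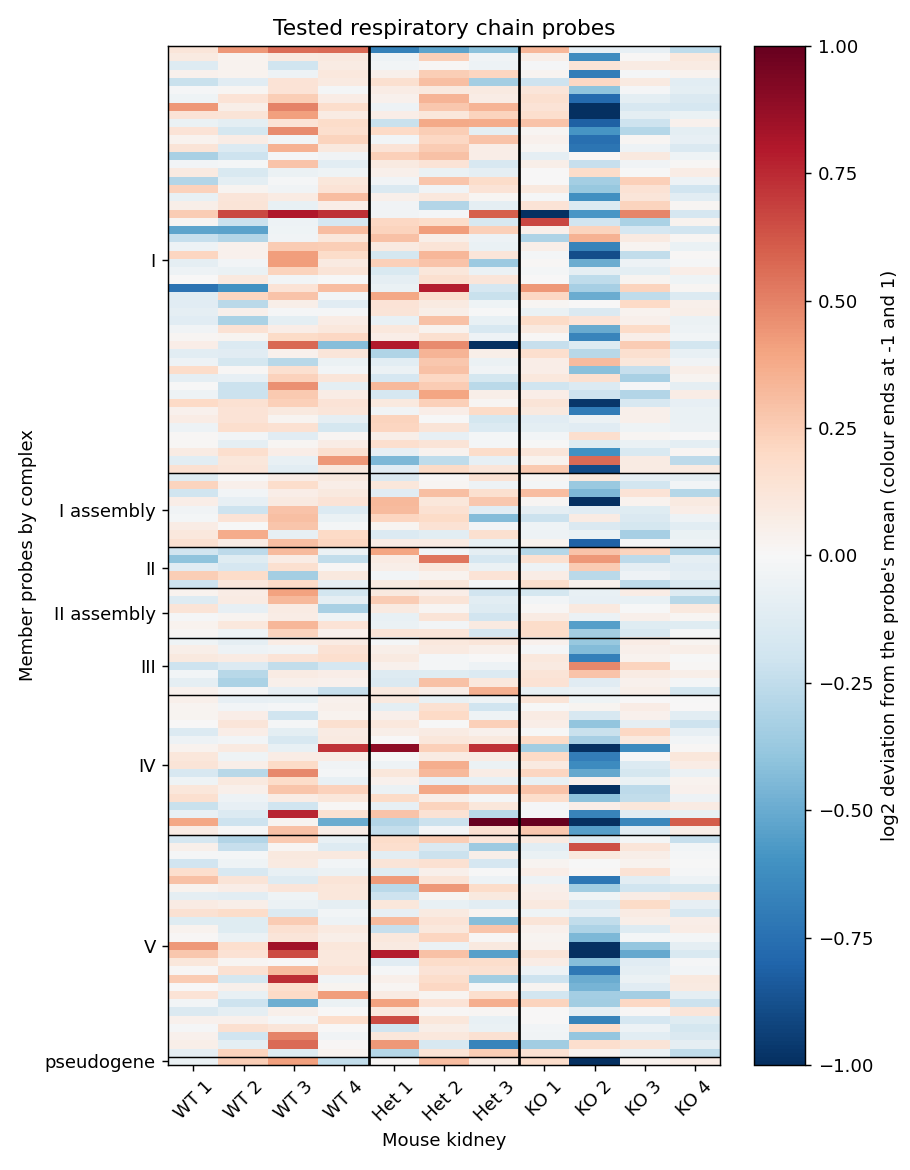
Log2 intensity of each tested member probe (rows, grouped by complex) on each of the 11 arrays (columns, by genotype), as a deviation from that probe's mean over the arrays. The column of KO 2 holds most of the dark blue cells in complexes I, IV and V. KO 2 was also the lowest array for 3 of the 7 complex III probes, and for 0 of the 5 of complex II.

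KO 2 carried the lowest value of all 11 arrays for 51.6% of the member probes (64 of 124). Its median deviation from the probes' own means was -0.27, and the other 10 arrays had medians between -0.05 and 0.13. The shift was uneven along the chain. On KO 2 the median was -0.46 for the membrane part of complex V, -0.41 for complex IV subunits and -0.39 for the accessory subunits of complex I. It was -0.11 for complex III subunits, but 0.01 for the catalytic F1 part of complex V and 0.25 for complex II subunits. Beside the chain, the 84 probes of cytosolic ribosomal proteins had a median of -0.28 on that array, which was lowest of the 11 for 56.0% of them. Tricarboxylic acid cycle enzymes stood at 0.17, mitochondrially encoded transcripts at 0.08 and proximal tubule markers at 0.18. Markers of other cell types lay farther out on KO 2, with medians of 0.64 for the distal convoluted tubule (highest array for 12 of 15 probes), 0.37 for the collecting duct (highest for 8 of 15) and -1.30 for blood (lowest for 2 of 3). KO 3 was near KO 2 for blood, at -1.19 (lowest for 1 of 3), and its member median was -0.01. All 3 blood probes were lower in KO than in WT kidneys, with a median of -0.70, or -0.32 without KO 2, and none passed the test. Over all tested probes KO 2 was the lowest array for 14.6%. The part of these cell types in the member readings of KO 2 was not tested.

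**Figure D2:**
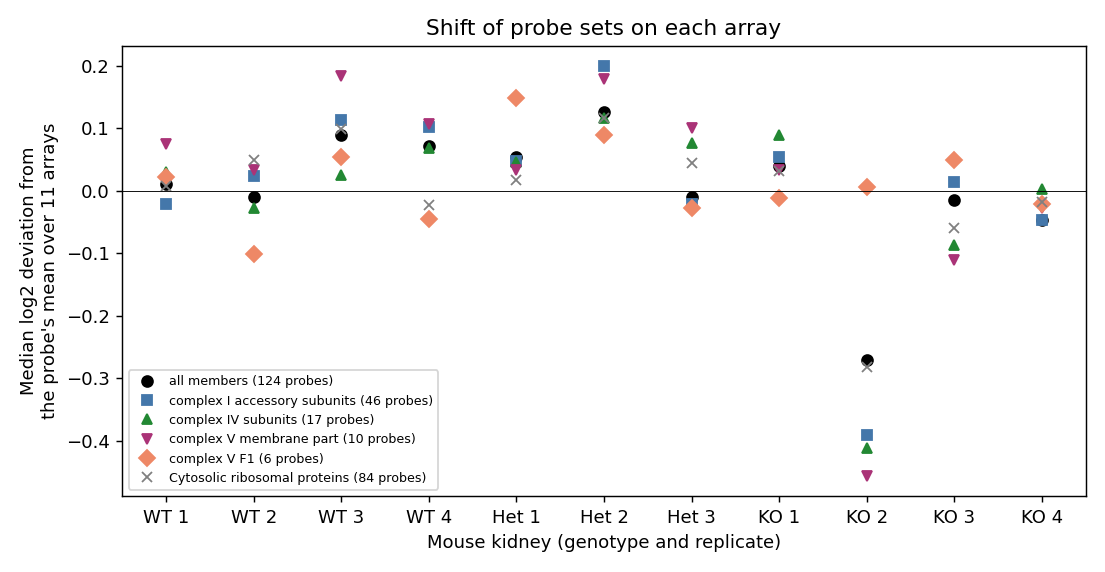
Median log2 deviation (vertical axis) of 5 groups of respiratory chain probes and of cytosolic ribosomal protein probes on each mouse's array (horizontal axis). KO 2 lies at -0.27 for all members and at -0.46 for the membrane part of complex V, while the F1 part of complex V lies at 0.01 on the same array.

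Complex by complex, the KO minus WT medians were -0.12 for complex I subunits (36 of 52 probes lower), 0.03 for complex II (2 of 5 lower), 0.01 for complex III (3 of 7 lower), -0.14 for complex IV (13 of 17 lower) and -0.12 for complex V (19 of 27 lower). Assembly factors of complex I with the Ndufaf name stem had a median of -0.20, with 9 of 9 probes lower. Those of complex II were at -0.15, with 4 of 6 lower. A further 7 complex I genes that the rule does not reach, read by 13 probes, went the other way. Their median was 0.12 with 9 of 13 probes higher, and 0.02 with 8 higher without KO 2. Without KO 2 the medians were -0.07 for complex I (35 of 52 lower), -0.06 for complex II (4 of 5 lower), 0.04 for complex III (1 of 7 lower), -0.01 for complex IV (9 of 17 lower) and -0.07 for complex V (18 of 27 lower). The assembly factors were then at -0.19 for complex I, with 8 of 9 lower, and at -0.11 for complex II. The count of members past the adjusted threshold was 0 in each of these groups. Median differences between Het and WT kidneys lay between -0.05 and 0.06 for every complex and group of assembly factors.

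**Figure D3:**
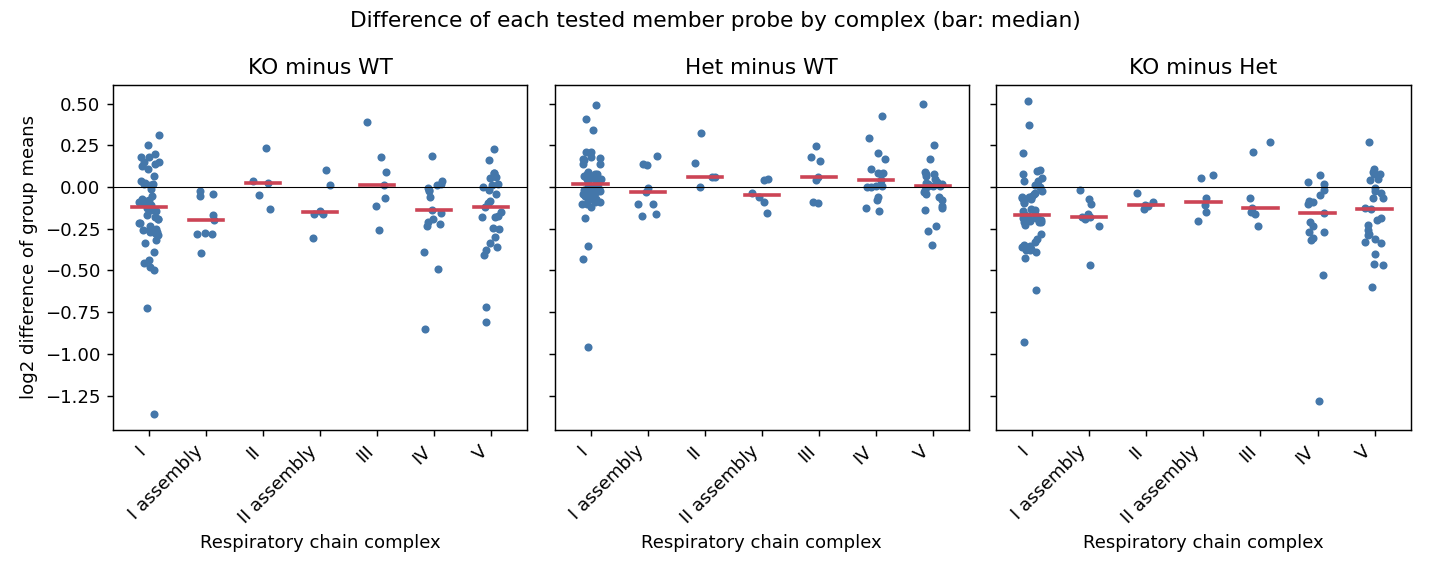
Log2 difference between genotype means for each tested member probe (points), by complex, in the 3 comparisons, with the median as a red bar. In KO minus WT the bars of complexes I, IV and V lie at -0.12, -0.14 and -0.12 and those of complexes II and III at 0.03 and 0.01. The panels of KO minus WT and Het minus WT share the WT mice.

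Among the core subunits of complex I, which bind the electron carriers or form the proton channels, 6 probes gave a median of -0.08 in KO minus WT. The 46 probes of accessory subunits, which surround and stabilise that core, gave -0.14 with 32 probes lower. Without KO 2 the core was at -0.07 and the accessory subunits at -0.07, with 31 of 46 lower. Ndufs3, a core subunit of the matrix arm, read 12.67, 12.55, 12.44 and 12.66 in WT, 12.61, 12.99 and 12.66 in Het and 12.79, 13.04, 12.83 and 12.68 in KO kidneys. Every KO value lay above every WT value, by 0.25 ± 0.12 on average, with a limma adjusted p of 0.392.

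ND6 is a core subunit of the membrane arm and the only protein encoded on the light strand of mitochondrial DNA. Its probe gave the smallest unadjusted p of all members. WT kidneys read 7.12, 7.43, 7.56 and 7.56, Het kidneys 6.32, 6.47 and 6.59 and KO kidneys 7.33, 6.92, 6.92 and 6.75. All Het values lay below all WT and all KO values, and KO 1 fell within the WT range. Het minus WT was -0.96 ± 0.15 (1.94-fold lower), with an unadjusted limma p of 3.08e-05 that became 0.349 after adjustment, and an exact permutation p of 0.0286, the smallest that 4 against 3 mice allow. KO minus Het was 0.52 ± 0.15 (limma adjusted p = 0.889) and KO minus WT -0.44 ± 0.14 (limma adjusted p = 0.253), so the order of the means did not follow the number of intact alleles. On slide 1 alone Het minus WT was -0.88 and on slide 2 alone -0.97. The 7 other mitochondrially encoded transcripts on the array, all from the heavy strand, had a median of -0.11 in Het minus WT. They ran from -0.33 to -0.05, with 7 of 7 lower. In KO minus WT they ran from -0.73 to 0.0052, with 6 of 7 lower and a median of -0.04, or -0.07 without KO 2. KO minus Het had a median of 0.08 with 6 of 7 higher, or 0.03 with 5 higher without KO 2. None passed the test in any comparison. ND4L, a small membrane arm subunit, was at -0.30 ± 0.15, and ND4 was at -0.17 ± 0.10.

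**Figure D4:**
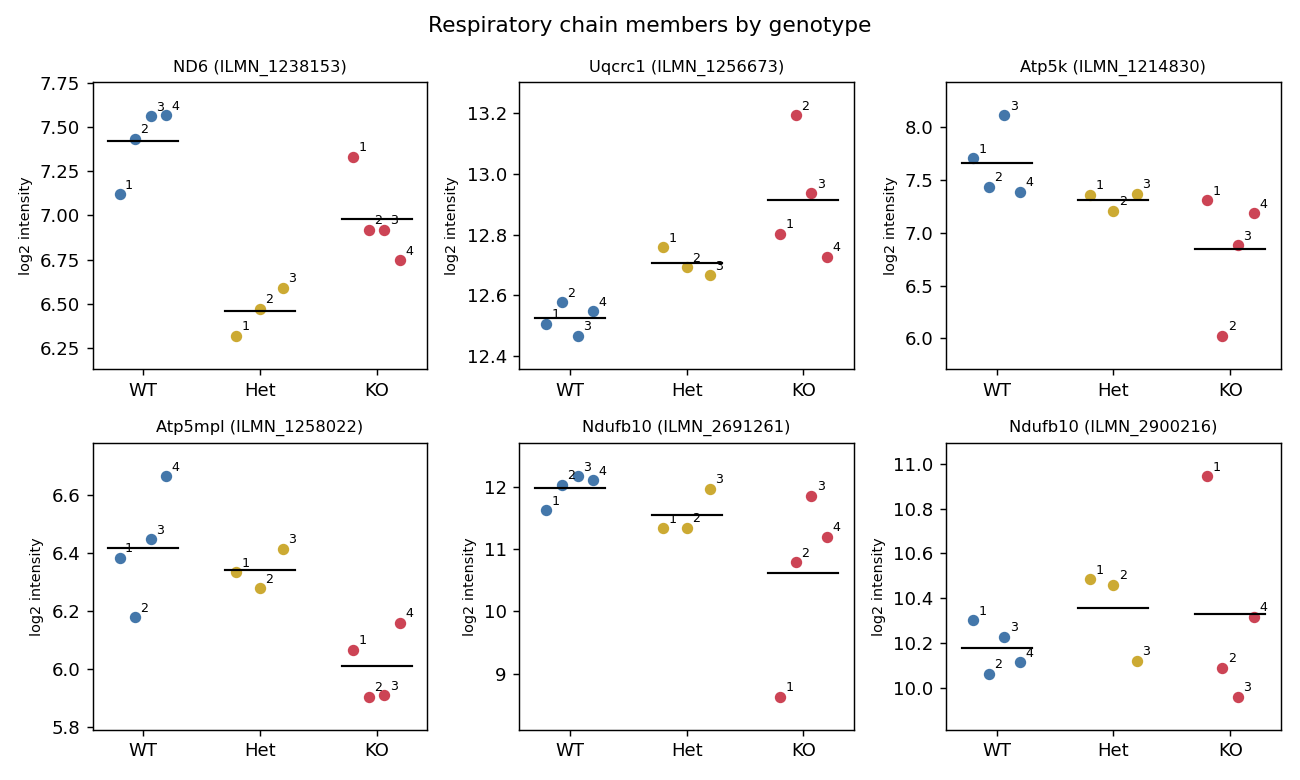
Normalised log2 intensity of 6 member probes in each mouse (points, numbered by replicate) with the genotype mean (bar). ND6 in the 3 Het mice lies at 6.32 to 6.59, below the 7.12 to 7.56 of the WT mice, and every KO value of Uqcrc1 lies above every WT value. The 2 probes of Ndufb10 place KO 1 at opposite ends.

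Several accessory subunits of complex I had their lowest reading in KO 2. Ndufb3, in the membrane arm, read 11.73, 11.56, 11.93 and 11.70 in WT and 11.49, 10.63, 11.27 and 11.52 in KO kidneys, which did not overlap. The difference was -0.50 ± 0.19 (limma adjusted p = 0.290), and -0.30 ± 0.14 without KO 2. Both probes of Ndufa3, another small membrane arm subunit, pointed the same way, at -0.72 ± 0.28 and -0.48 ± 0.22, with KO 2 at 10.22 and 11.58 as the lowest array, and at -0.35 ± 0.15 and -0.19 ± 0.12 without it. Ndufs6, a zinc-binding subunit of the matrix arm, gave -0.45 ± 0.19 and -0.25 ± 0.15 with its 2 probes, and -0.22 ± 0.11 and -0.07 ± 0.10 without KO 2. For Ndufa7, which had the smallest unadjusted p against Het among complex I subunits after ND6, KO minus Het was -0.38 ± 0.17 (limma adjusted p = 0.899), and -0.21 ± 0.13 without KO 2.

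Higher readings in heterozygotes were found for Ndufa8, an accessory subunit with paired cysteine motifs. Its probe ILMN_2682019 read 11.29, 11.41, 11.61 and 11.58 in WT, 11.85, 11.91 and 11.69 in Het and 11.53, 11.63, 11.72 and 11.57 in KO kidneys. Het and WT did not overlap and differed by 0.34 ± 0.12 (limma adjusted p = 0.663), but a second probe of the gene, ILMN_2880067, gave -0.01 ± 0.13. Ndufb11, a membrane arm subunit encoded on the X chromosome, gave 0.49 ± 0.19 in Het minus WT with probe ILMN_2747885 (limma adjusted p = 0.716). WT 4, at 6.56, lay within the Het range of 6.48 to 6.67, and the difference was 0.85 on slide 1 and 0.11 on slide 2. The other Ndufb11 probe had a detection p under 0.01 on 0 WT, 1 Het and 1 KO array, so that no difference is given for it. In Het against WT kidneys 4 member probes had an unadjusted p under 0.05 (3.23% against 6.75% of all probes), 3 of them higher (2.42% against 3.69%) and 1, ND6, lower (0.806% against 3.06%). Groups did not overlap for 6 probes (4.84% against 6.72%), 4 of them higher (3.23% against 3.35%) and 2 lower (1.61% against 3.37%), and 0 of 124 members passed the adjusted threshold, as did 0 of all probes (0%).

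Ndufb10, a membrane arm subunit held by disulphide bonds, showed how far 2 probes of a gene can differ. Probe ILMN_2691261 read 11.62, 12.03, 12.17 and 12.10 in WT, 11.33, 11.34 and 11.96 in Het and 8.64, 10.79, 11.85 and 11.20 in KO kidneys. Probe ILMN_2900216 read 10.30, 10.06, 10.23 and 10.11 in WT, 10.48, 10.46 and 10.12 in Het and 10.95, 10.09, 9.96 and 10.32 in KO kidneys. KO 1 was thus the lowest of all arrays on one probe and the highest on the other. Their KO minus WT differences were -1.36 ± 0.49 and 0.15 ± 0.18 (limma adjusted p = 0.287 and 0.762), or -1.42 and 0.23 without KO 2, and the gap of 1.51 between them was the widest of the 29 member genes with several tested probes. Next came Atp5o, with a gap of 0.46, and Ndufb6, with 0.40, whose probes gave 0.31 ± 0.27 and -0.08 ± 0.10. Without KO 2 the Ndufb6 probes were at 0.45 and -0.02.

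Of the factors that build complex I, Ndufaf2, Ndufaf5 and Ndufaf8 each had a probe on which no KO value reached the lowest WT value. Over all tested probes, 3.45% were lower in KO without overlap. Ndufaf8, which stabilises the Ndufaf5 enzyme, read 9.54, 9.47, 9.69 and 9.60 in WT, 9.46, 9.47 and 9.32 in Het and 9.43, 8.58, 9.38 and 9.34 in KO kidneys. KO minus WT was -0.40 ± 0.16 for Ndufaf8, -0.28 ± 0.11 for Ndufaf2 and -0.20 ± 0.10 for Ndufaf5, with limma adjusted p-values of 0.339, 0.305 and 0.434. Without KO 2 they were -0.20 ± 0.10, -0.21 ± 0.10 and -0.19 ± 0.11. The other Ndufaf5 probe, ILMN_1216813, gave -0.17 ± 0.15 (limma adjusted p = 0.661), or -0.22 ± 0.16 without KO 2, and its KO and WT values overlapped. Timmdc1, an assembly factor whose name the rule does not reach, went the other way: WT kidneys read 8.98, 9.92, 10.30 and 8.95 and KO kidneys 10.68, 10.49, 10.78 and 10.67. The KO minus WT difference of Timmdc1 was 1.12 ± 0.25 (limma adjusted p = 0.168). This gene lies on chromosome 16, as Cldn16 does, and the mice were of mixed background. Whether its position or the background has a part in this difference was not tested.

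Complex II is both the succinate dehydrogenase of the tricarboxylic acid cycle and an entry point of the chain, and its readings differed little between genotypes. Sdhb, the iron-sulphur subunit, was read by 3 probes, with KO minus WT differences of 0.23 ± 0.18, 0.03 ± 0.12 and 0.04 ± 0.18. On the first of these, ILMN_2769064, the mice ranged from 11.94 to 12.42 in WT, from 12.18 to 12.88 in Het and from 12.08 to 12.77 in KO kidneys, and all groups overlapped. Its sign differed between slides, with 0.56 on slide 1, which held KO 2, and -0.09 on slide 2, and without KO 2 it was at 0.11. The membrane anchors Sdhc and Sdhd gave -0.13 ± 0.13 and -0.05 ± 0.12. Sdhaf1, which helps insert the iron-sulphur clusters, gave -0.16 ± 0.13 with both of its probes, Sdhaf2, which helps attach the flavin to Sdha, 0.10 ± 0.11, and Sdhaf4 -0.14 ± 0.13. The probes of Sdhaf3 differed, at -0.30 ± 0.14 and 0.01 ± 0.10. Without KO 2, Sdhc was at -0.07, Sdhd at -0.08, Sdhaf4 at -0.06 and the first Sdhaf3 probe at -0.17. The Sdhb probes ILMN_2769065 and ILMN_2592389 were then both at -0.06. The Sdha probe itself was detected on 0 arrays, which says nothing of the gene, since this subunit is required in every mitochondrion.

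Uqcrc1, a core protein of complex III, had the smallest p of the members in KO against WT. WT kidneys read 12.51, 12.58, 12.47 and 12.55, Het kidneys 12.76, 12.69 and 12.67 and KO kidneys 12.80, 13.19, 12.94 and 12.73. All Het and all KO values lay above all WT values, Het and KO overlapped, and KO 2 was the highest array. KO minus WT was 0.39 ± 0.11 (1.31-fold), with a limma adjusted p of 0.211 and an exact permutation p of 0.0286, the smallest that 4 against 4 mice allow. Het minus WT was 0.18 ± 0.12 (limma adjusted p = 0.835). Without KO 2 the KO minus WT difference was 0.30 ± 0.10, and the slides gave 0.46 and 0.32.

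Uqcrc2, the partner core protein of Uqcrc1, was at 0.18 ± 0.11 in KO minus WT and at 0.27 ± 0.12 in KO minus Het (limma adjusted p = 0.889), where KO values of 13.83 to 14.06 all lay above Het values of 13.64 to 13.65. Uqcr11 read 14.10, 14.08, 14.14 and 14.17 in WT and 14.11, 13.32, 14.04 and 13.999 in KO kidneys, so that its difference of -0.26 ± 0.15 was -0.07 ± 0.10 without KO 2. For Uqcrq, a ubiquinone-binding subunit, Het values of 7.69 to 7.98 lay above WT values of 7.39 to 7.66, by 0.25 ± 0.12 (limma adjusted p = 0.746). Uqcrh, the hinge protein, was at 0.09 ± 0.12 and the Uqcr10 probes at -0.07 ± 0.12 and -0.11 ± 0.12. Without KO 2 the Uqcr10 probes were at 0.04 and 0.0033.

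Complex IV has subunits with tissue isoforms. Of the forms used in most tissues, Cox4i1 was at 0.04 ± 0.10 and Cox6a1 at -0.0048 ± 0.11 and 0.02 ± 0.12 with its 2 probes. Cox7a2 was at -0.21 ± 0.13 and Cox7a2l, which links complexes III and IV, at 0.19 ± 0.10. Cox5b, the zinc-binding subunit, gave -0.22 ± 0.12 and -0.02 ± 0.11. Ndufa4, first described with complex I and now counted with complex IV, gave -0.19 ± 0.16, and -0.03 ± 0.13 without KO 2. Cox6b1, which faces the intermembrane space, gave -0.15 ± 0.16 and -0.23 ± 0.16, and 0.04 and -0.08 without KO 2. Cox6b2, of the same family, was at -0.14 ± 0.18 on its tested probe, and at -0.01 without KO 2. Without that mouse Cox7a2 was at -0.12, the first Cox5b probe at -0.14 and the second Cox6a1 probe at 0.13.

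Heart and muscle isoforms varied more. Cox6a2 read 9.35, 9.41, 9.24 and 10.05 in WT, 10.22, 9.56 and 10.05 in Het and 8.97, 7.66, 8.68 and 9.33 in KO kidneys. All KO values lay below all Het values, and KO 4 reached into the WT range. KO minus Het was -1.28 ± 0.32 (2.43-fold lower, limma adjusted p = 0.744, exact permutation p = 0.0571, where 0.0286 is the smallest possible) and KO minus WT -0.85 ± 0.30 (limma adjusted p = 0.277). Without KO 2, KO minus WT was -0.52 ± 0.22. Cox7a1 read 10.72, 10.66, 10.89 and 10.84 in WT and 10.89, 9.26, 10.35 and 10.65 in KO kidneys. Its difference of -0.49 ± 0.27 was -0.15 ± 0.15 without KO 2. Of 13 striated muscle markers on the array, 8 were detected on 0 arrays, among them Ckm, Acta1 and Mb, and the summed intensity of the 7 tested probes was 210 to 262 in WT, 236 to 287 in Het and 232 to 266 in KO kidneys.

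Cox8b, the isoform of rodent muscle and brown fat, had one of the widest spreads among mice. WT kidneys read 9.07, 8.48, 8.71 and 8.19, Het kidneys 8.39, 8.47 and 9.86 and KO kidneys 10.11, 6.92, 8.03 and 9.29. Het 3, KO 1 and KO 4 were the highest arrays and KO 2 the lowest, the genotypes overlapped, and KO minus WT was -0.02 ± 0.55, or 0.53 ± 0.45 without KO 2. The same 3 mice were highest for Ucp1, the uncoupling protein of brown fat, at 7.65, 8.27 and 7.61, and for the fat hormone gene Adipoq, at 10.81, 10.71 and 10.42, where the other mice reached 7.02 and 9.41. KO 2 had 6.60 for Ucp1 and 8.04 for Adipoq. The summed intensity of the 4 tested brown fat probes was 3191 to 4255 in WT, 4378 to 4889 in Het and 2772 to 4192 in KO kidneys. That of the 6 adipocyte probes, which include the kidney-expressed Lpl, was 18813 to 27282, 13706 to 18532 and 18360 to 23742. These sums follow the brightest probes. Probe by probe, 3 of 4 brown fat markers were higher in KO than in WT kidneys, each at an unadjusted p under 0.05, with a median of 0.98, and 5 of 6 adipocyte markers were higher, with a median of 0.31. No fat marker passed the adjusted threshold. The part of fat in the Cox8b readings was not tested. Leaving out Het 3, KO 1 and KO 4, with KO 2 and KO 3 as the only KO mice, put the Cox8b difference at -1.14, and the complex IV median at -0.35.

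**Figure D5:**
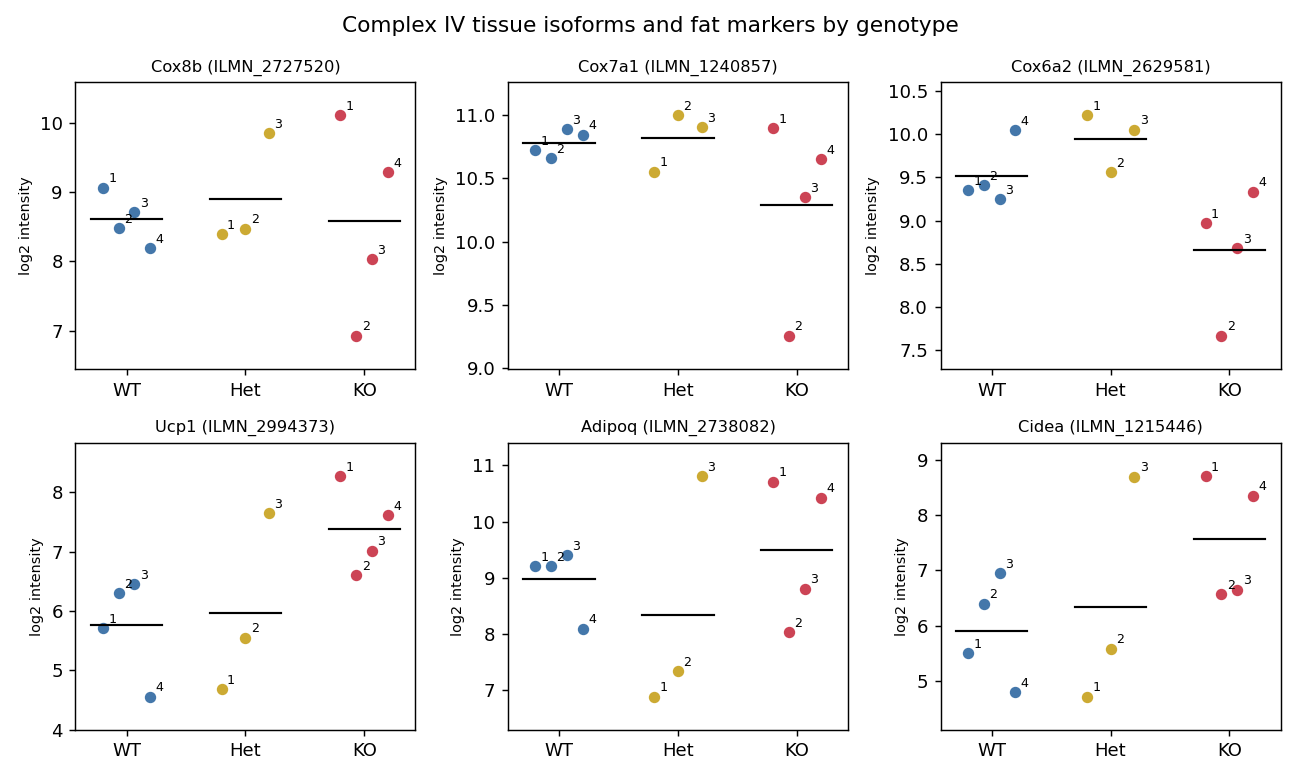
Normalised log2 intensity of 3 tissue isoforms of complex IV (top) and of 3 fat markers (bottom) in each mouse (points, numbered by replicate) with the genotype mean (bar). Cox8b, Ucp1, Adipoq and Cidea have Het 3, KO 1 and KO 4 as their highest mice, and KO 2 is the lowest point of Cox8b, Cox7a1 and Cox6a2.

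In complex V the medians of the membrane part and the catalytic part lay apart. For the 10 probes of the membrane part, which holds the rotating ring and the small subunits that shape the cristae, the median KO minus WT difference was -0.31 with 9 lower, and -0.20 with 9 lower without KO 2. The F1 part had a median of 0.03 over 6 probes, 3 lower and 3 higher, and the peripheral stalk that joins both parts -0.09 over 11 probes. Within F1, Atp5b, the catalytic beta subunit, was at -0.02 ± 0.10 and Atp5c1, the gamma subunit of the rotor shaft, at 0.06 ± 0.11. Atp5e, the small epsilon subunit, was the lowest of its probes at -0.34 ± 0.16, and at -0.17 without KO 2. Atp5a1, also of F1, gave 0.23 ± 0.17 (ILMN_2633229) and -0.0018 ± 0.13 (ILMN_2570875), or 0.07 and 0.02 without KO 2. In Het minus WT its probe ILMN_2570875 was at 0.25 ± 0.14 (limma adjusted p = 0.780) and ILMN_2633229 at -0.04 ± 0.18. Whether the parts of complex V differ from each other was not tested.

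Atp5k encodes subunit e, which with subunit g joins ATP synthases into dimers. Its probe ILMN_1214830 read 7.70, 7.43, 8.11 and 7.39 in WT, 7.36, 7.21 and 7.37 in Het and 7.31, 6.02, 6.88 and 7.18 in KO kidneys. All KO and all Het values lay below all WT values. KO minus WT was -0.81 ± 0.24 (1.75-fold lower), with a limma adjusted p of 0.219 and an exact permutation p of 0.0286, and -0.54 ± 0.17 without KO 2. A second probe, ILMN_2776899, gave -0.72 ± 0.29 in KO minus WT, or -0.47 ± 0.27 without KO 2, and its Het values of 6.07 to 7.40 spanned those of WT. Atp5l, subunit g, gave -0.38 ± 0.15 and -0.18 ± 0.12 with its 2 probes, and -0.21 and -0.08 without KO 2. On the first, WT values of 12.40 to 12.71 all lay above KO values of 11.67 to 12.36.

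Atp5mpl, a small proteolipid of the membrane part, read 6.38, 6.18, 6.45 and 6.66 in WT, 6.33, 6.28 and 6.41 in Het and 6.07, 5.91, 5.91 and 6.16 in KO kidneys with probe ILMN_1258022. All KO values lay below all WT and Het values, here with KO 2 and KO 3 alike. KO minus WT was -0.41 ± 0.12 (limma adjusted p = 0.211, exact permutation p = 0.0286) and KO minus Het -0.33 ± 0.13. The brighter probe ILMN_1239677 gave -0.18 ± 0.13 in KO minus WT, and -0.06 without KO 2. Atp5g3, which encodes the protein of the rotating ring, was at 0.08 ± 0.10, whereas Atp5g2, a second gene for the same protein, was at -0.25 ± 0.14.

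Atp5o, the stalk subunit that gives oligomycin sensitivity, and Atp5j, another stalk subunit, lie on chromosome 16 with Cldn16, as does Ndufb4 of complex I. The 3 probes of Atp5o gave 0.16 ± 0.15, 0.05 ± 0.10 and -0.30 ± 0.17 in KO minus WT, and 0.27, 0.09 and -0.16 without KO 2. On the first, ILMN_1237733, WT kidneys read 6.10, 5.92, 5.64 and 6.07 and Het kidneys 6.53, 6.26 and 6.49, without overlap and 0.50 ± 0.17 apart (limma adjusted p = 0.663). The 2 Atp5j probes detected on all arrays were at -0.10 and -0.12 in KO minus WT, and at -0.09 and -0.04 without KO 2. Ndufb4 was at -0.23 ± 0.17, and at -0.12 without that mouse.

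KO and Het kidneys, compared directly, gave a median of -0.15 over the members with 100 of 124 lower, and -0.06 with 88 lower without KO 2. No member passed the threshold, as did 0 of all probes (0%). An unadjusted p under 0.05 was found for 7 members (5.65% against 5.43% of all probes), 5 lower (4.03% against 2.65%) and 2 higher (1.61% against 2.78%). Without KO 2 these were 2 lower (1.61% against 2.18%) and 2 higher (1.61% against 2.29%). Without KO 1, KO 4 and Het 3, which gives KO 2 more weight, they were 30 lower (24.2% against 3.23%) and 2 higher (1.61% against 2.58%). Groups did not overlap for 12 members (9.68% against 6.19%). Of these, 10 were lower in KO kidneys (8.06% against 3.01%), among them Cox6a2, Atp5mpl, Ndufa11 and Ndufaf4, and 2, ND6 and Uqcrc2, were higher (1.61% against 3.18%). This comparison shares its KO mice with KO against WT.

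Promoters are shown for members that differed in opposite directions, and for a widely used and a tissue-limited isoform of complex IV. RefSeq promoters (build GRCm38.p6, 250 bases before to 50 after the start) were matched for 76 of the 92 genes, with 81 promoters. In each sequence below, capitals mark GCGCATGCG, the binding motif of NRF1, which drives many respiratory chain genes, and CCGGAAG, a motif of the GABP type, read on both strands, so that the second can appear as CTTCCGG. The first matches both strands at overlapping places, which lengthens its run by a base.
Uqcrc1: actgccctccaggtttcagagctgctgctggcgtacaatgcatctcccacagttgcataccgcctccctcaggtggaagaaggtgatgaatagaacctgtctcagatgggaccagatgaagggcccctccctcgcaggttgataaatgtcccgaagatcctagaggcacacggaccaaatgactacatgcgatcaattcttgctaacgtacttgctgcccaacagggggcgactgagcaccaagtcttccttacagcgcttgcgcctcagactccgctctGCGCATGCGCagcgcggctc
Atp5k: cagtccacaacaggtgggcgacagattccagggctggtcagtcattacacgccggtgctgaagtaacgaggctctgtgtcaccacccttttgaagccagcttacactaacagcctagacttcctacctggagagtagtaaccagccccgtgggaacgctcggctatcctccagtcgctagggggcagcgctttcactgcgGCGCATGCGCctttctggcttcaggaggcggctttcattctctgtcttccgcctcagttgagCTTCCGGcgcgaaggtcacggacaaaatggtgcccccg
Cox6a1: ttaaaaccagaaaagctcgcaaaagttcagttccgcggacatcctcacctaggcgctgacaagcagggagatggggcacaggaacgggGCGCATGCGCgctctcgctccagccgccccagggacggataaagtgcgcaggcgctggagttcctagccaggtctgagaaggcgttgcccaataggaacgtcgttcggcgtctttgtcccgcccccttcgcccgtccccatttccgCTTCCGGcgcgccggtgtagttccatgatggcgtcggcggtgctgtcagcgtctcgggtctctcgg
Cox8b: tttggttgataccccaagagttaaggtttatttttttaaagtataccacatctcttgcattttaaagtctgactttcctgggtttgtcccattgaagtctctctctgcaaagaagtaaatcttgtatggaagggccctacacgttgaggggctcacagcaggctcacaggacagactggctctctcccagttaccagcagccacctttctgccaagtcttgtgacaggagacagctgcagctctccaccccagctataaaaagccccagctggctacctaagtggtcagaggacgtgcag

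They lie at chr9:108936398-108936697 on the plus strand (Uqcrc1), and on the minus strand at chr5:108434350-108434649 (Atp5k), chr5:115348909-115349208 (Cox6a1) and chr7:140900397-140900696 (Cox8b). The NRF1 letters stood in 10 of the 81 member promoters (12.3%) and in 1.75% of 32851 promoters, and the GABP letters in 25.9% against 8.86%. TCAAGGTCA, bound by the estrogen-related receptors, stood in 2.47% against 0.423%, and AAGATGGCG, of the YY1 type, in 9.88% against 1.4%. Different motifs did not overlap in the sequences printed. The 10 genes with the NRF1 letters were read by 16 tested probes, and their KO minus WT differences ran from -0.81 for Atp5k to 0.39 for Uqcrc1, with Cox6a1 near 0. The Cox8b window held none of the 4 motifs. A match describes the letters only.

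Other mitochondrial gene lists, picked by function, gave no probe past the threshold in any comparison. Tricarboxylic acid cycle enzymes had a KO minus WT median of 0.11 with 21 of 28 probes higher, and of 0.05 with 19 higher without KO 2. Dlst, of the oxoglutarate dehydrogenase complex, was at 0.47 ± 0.14 on its probe farthest from 0, and its other 3 probes lay between 0.0019 and 0.27. Idh3g, of isocitrate dehydrogenase, gave 0.38 ± 0.11 and -0.04 ± 0.12 with its 2 probes. Mitochondrial ribosomal proteins had a median of -0.10, with 32 of 45 probes lower, close to the -0.10 of cytosolic ribosomal proteins, with 62 of 84 lower and -0.05 without KO 2. Factors that assemble complex IV had a median of -0.03 over 20 probes, or 0.0073 without KO 2, and Lrpprc, which stabilises mitochondrial messages, gave 0.18 to 0.38 with its 3 probes. Among the regulators of mitochondrial number, Ppargc1a, a coactivator of respiratory genes, was at -0.14 ± 0.19, Esrra at -0.02 ± 0.12 and -0.18 ± 0.11, and Tfam, which packages mitochondrial DNA, at 0.45 ± 0.14 and 0.11 ± 0.11 with its 2 probes (limma adjusted p = 0.239 and 0.703). Atpaf2, which assembles F1, gave -0.34 ± 0.10 and 0.05 ± 0.10, and Slc25a3, the phosphate carrier that feeds the ATP synthase, 0.45 ± 0.14 and 0.06 ± 0.12.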

How the data were processed

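Each mouse's genotype came from its labels, and replicate numbers follow accession order and pair nothing. Per the file headers, the authors deposited for every probe and array a linear intensity, which averages its beads, with a p-value of detection. The submitters' processing notes name BeadStudio, and the sources used here do not give its background treatment. These intensities were not normalized between arrays (medians of 70.3 to 76.6). The authors also deposited processed intensities of unstated method. Quantile normalization of the first table came within a median of 0.00392 units of them.

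Background was corrected with limma's normexp (version 3.58.1, statmod 1.5.0, R 4.3.3), inferring negative controls from detection p-values and adding an offset of 16, which compresses low readings. Quantile normalization and log2 followed. Of the 143 member probes, 121 had a detection p under 0.01 on all 11 arrays, and 19 were not tested, so that Ndufaf6, Cox7b2, Cox4i2, Cox8c, Ndufs1, Sdha and Uqcrfs1 had no reading. Per array, 41.6% to 43.6% of probes reached that detection level, and the number of arrays limits precision. The platform annotation gave 34885 probes 1 symbol, 18 several and 10378 none, and all 92 member genes matched RefSeq. Probe sequences were not examined, so pseudogenes were not told apart, and Ndufs5-ps was kept out of the complexes. Levels of different probes were not compared.

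A mean per genotype was fitted over all 11 arrays (lmFit, eBayes, prior degrees of freedom 5.18), with two-sided tests, Benjamini-Hochberg adjustment over all tested probes and a threshold of 0.05. Exact permutation tests were two-sided (70 arrangements of 4 against 4 mice, 35 of 4 against 3). The fit was checked on simulated data. Named members are, per complex, the 3 smallest p-values in KO against WT and the 2 smallest in each other comparison, the complex IV isoforms, all Sdh members, ND6, the 3 widest spreads over mice and the 3 genes whose probes differed most. Genes of other lists were named by a rule of the same kind or for their role. Further members (Ndufs3, Ndufa3, Ndufs6, Ndufb4, Ndufb11, Ndufaf2, Ndufaf5, Ndufaf8, Uqcrh, Uqcr10 and examples of complex V) were named after their values were seen. Members and lists were chosen with earlier results of these data known, and the parts of complexes I and V and the ribosomal list after values were seen. Alternatives covered background, scaling, filters, slide, day, array weights and left-out mice.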

Additional observations from a re-analysis of the deposited data

Results flagged for a closer look

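Over 44 named probes, 100 checks of sets of 4 mice were made, and some sets were counted more than once. In 3 of them a mouse's gap to its nearest neighbour, as a share of the group's range, passed Dixon's critical value. Chance alone sets apart about 5% of sets where each is counted once. KO 2 was the lowest KO mouse in each of the 3. The gap took 0.858 of the range for Uqcr11, 0.868 for Cox7b and 0.911 for Atp5l (ILMN_2973897). KO 2 read 13.32 for Uqcr11 where the other KO mice read 13.999 to 14.11, 9.31 for Cox7b against 9.87 to 9.95, and 11.67 for Atp5l against 12.29 to 12.36. Without KO 2 the KO minus WT differences were -0.07 for Uqcr11, -0.24 for Cox7b and -0.21 for Atp5l, against -0.26, -0.39 and -0.38 with it.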

How the results depend on the processing

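No member passed the adjusted threshold under any of the settings tried, and the lowest adjusted p of a member over them was 0.143. The KO minus WT median of all members stayed below 0, between -0.16 and -0.06, and that of KO minus Het between -0.25 and -0.03, while Het minus WT ran from -0.08 to 0.09. No paired analysis was possible because the labels give the genotypes no shared replicate numbers.

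KO 2 was on slide 1, so slide 2 alone also left it out. On slide 1 alone it was 1 of 2 KO mice. The parts of slide and of KO 2 in the slide values were not tested. Of 60 named differences, 12 changed sign on slide 2 alone. In KO minus WT they were Sdhb (-0.0894 for ILMN_2769064, -0.16 for ILMN_2592389 and -0.19 for ILMN_2769065), Sdhc (0.05), Uqcrc2 (-0.0057), Cox6a1 (0.07 for ILMN_2605400), Cox8b (0.21), Ndufb10 (-0.033 for ILMN_2900216) and Ndufb6 (0.0084 for ILMN_1242233 and -0.10 for ILMN_2914507). In Het minus WT they were Sdhb (-0.0814 for ILMN_2769064 and -0.22 for ILMN_2592389). At most 6 changed sign under any other setting. On slide 1 alone the KO minus WT medians were 0.23 for complex II and -0.0811 for complex III, Het minus WT was 0.22 for complex II, and KO minus Het was -0.23 for complex V. Slide 2 alone gave -0.16 for complex II in KO minus WT, and in KO minus Het -0.0289 for all members, 0.0077 for complex I and 0.0042 for complex III. Scaling each array by its median put the median of all probes at 0.11 in KO minus WT and 0.10 in Het minus WT, against member medians of -0.10 and 0.09, and KO minus Het at -0.20 for complex III and -0.24 for complex V. Leaving out KO 1, KO 4 and Het 3, chosen with earlier results of these data known, left KO 2 and KO 3 as the KO mice. Complex IV was then at -0.35 in KO minus WT, and KO minus Het was -0.25 for all members, -0.29 for complexes I and IV and -0.30 for complex V. Leaving out 1 mouse at a time, KO minus Het for complex III ran from -0.17 to -0.0192 (the latter without KO 2).

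Calls over all probes in KO against WT, 9 in the analysis reported, were 4 with slide as a block, 0 on slide 2 alone, with day as a term or with only both genotypes, 14 with array weights, 4 without KO 1, KO 4 and Het 3, and 0 to 15 with 1 mouse left out (15 without WT 3, 3 without Het 3 or KO 1, 1 without WT 4, and 0 without WT 1, WT 2, Het 2 or KO 2). KO against Het had 2 without background correction and with the authors' processed values, 6 on slide 1, 8 on slide 2 and 0 to 1 with 1 mouse left out (1 without WT 4). Het against WT had 1 on slide 1, 8 on slide 2 and 0 to 1 with 1 mouse left out (1 without WT 3). With 1 array in a genotype, the slide values assume that it varies like the others. The cause of these changes was not tested. With 3 or 4 mice per genotype and an adjustment over 22856 probes, differences below the spread between mice were not detectable. Larger ones could also fail the test. ND6 in Het minus WT was at -0.96, with an SD of 0.21 in WT and 0.14 in Het, and had a limma adjusted p of 0.349.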
